A study of Mus musculus with 16 samples.

Results

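The 9 genes described here encode the hormones of the anterior pituitary and a pair of the transcription factors that specify its cells. They are Cga, Prl, Gh, Pomc, Tshb, Lhb, Fshb, Pitx1 and Pou1f1, and they were chosen by name, as every non-control probe whose gene name on the array equals one of them. They have 10 probes, since Cga has 2, and are 9 of the 34821 gene names on the array. RNA of samples labelled as whole brain was measured on 16 Agilent whole-genome mouse arrays read in 1 colour (Cy3).

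The mice were males, given as C57BL/6J, either wild type or deficient in Slc5a8, which carries lactate, pyruvate and ketone bodies into cells together with sodium. The 4 groups were wild type at 4 months (young wild type), Slc5a8-deficient at 4 months (young deficient), wild type at 18 months (old wild type) and Slc5a8-deficient at 18 months (old deficient), with 4 arrays each. The labels do not say how the deficiency was made or whether it covers the whole body, and name no treatment. They give the tissue only as whole brain, and do not say whether the pituitary was taken with it. The 4 arrays of each group are described as biological replicates, with no more said of the animals, and each p-value reflects the spread among these samples.

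The anterior pituitary hangs below the hypothalamus and releases its hormones into the blood. Lactotrophs make prolactin (Prl), somatotrophs growth hormone (Gh) and corticotrophs pro-opiomelanocortin (Pomc), the precursor of adrenocorticotropin, while thyrotrophs and gonadotrophs each pair the shared alpha subunit Cga with a beta subunit of their own, Tshb in the first and Lhb or Fshb in the second. Pitx1 acts early in the whole gland, and Pou1f1 is needed for somatotrophs, lactotrophs and thyrotrophs. Some of these genes are also used in brain or at its edge: neurons of the hypothalamic arcuate nucleus make Pomc, and the pars tuberalis, which lies against the median eminence, makes Cga and Tshb.

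The following 60-base array probes are shown, 5′ to 3′, because the levels of these hormones rest on 1 probe each. The Gh probe is spread over 244 bases of genome (chr11:106162492-106162735, NCBI37/mm9, minus strand), so it crosses an intron, while the Pomc probe is continuous in the genome (chr12:3960413-3960472, plus strand). The Lhb probe is continuous as well (chr7:52676685-52676744, plus strand).
Gh probe: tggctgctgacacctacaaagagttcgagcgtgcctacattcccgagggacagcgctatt
Pomc probe: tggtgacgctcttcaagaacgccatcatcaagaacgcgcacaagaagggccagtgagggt
Lhb probe: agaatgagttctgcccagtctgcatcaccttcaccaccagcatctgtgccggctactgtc

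The other probes were placed by the scanner files, also in NCBI37/mm9. The Prl probe lies at chr13:27156972-27157031 and position 793 of its transcript, the main Cga probe at chr4:34854544-34854603 and position 611, and the Pitx1 probe at chr13:55926417-55926476 and position 2386. The Fshb probe lies at chr2:106896400-106896459, and the Pou1f1 probe at chr16:65534256-65534315. The other Cga probe is assigned to an Ensembl transcript and lies at chr4:34842664-34842723, upstream of the main one.

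Promoters of 3 of the hormone genes are shown because these genes varied together across the arrays. They are the 250 bases before the RefSeq transcription start in GRCm38.p6, plus strand in each case, with motif matches in capitals.
Prl upstream sequence (chr13:27057320-27057569): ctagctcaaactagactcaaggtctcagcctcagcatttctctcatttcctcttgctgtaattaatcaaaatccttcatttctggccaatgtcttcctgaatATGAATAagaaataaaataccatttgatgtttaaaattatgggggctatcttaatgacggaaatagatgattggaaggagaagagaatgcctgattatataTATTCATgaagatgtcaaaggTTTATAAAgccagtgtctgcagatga
Cga upstream sequence (chr4:34893529-34893778): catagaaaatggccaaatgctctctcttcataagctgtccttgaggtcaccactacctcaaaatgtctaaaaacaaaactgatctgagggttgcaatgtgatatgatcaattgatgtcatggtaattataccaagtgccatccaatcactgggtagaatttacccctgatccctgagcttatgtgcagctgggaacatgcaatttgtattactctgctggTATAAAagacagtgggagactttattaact
Pomc upstream sequence (chr12:3954695-3954944): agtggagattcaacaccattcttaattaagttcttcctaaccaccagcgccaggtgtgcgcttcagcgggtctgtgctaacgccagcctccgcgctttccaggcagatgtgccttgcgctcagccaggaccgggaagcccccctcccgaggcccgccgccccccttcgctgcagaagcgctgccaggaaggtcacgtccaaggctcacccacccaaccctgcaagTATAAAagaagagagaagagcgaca
The letters searched, on both strands, were TATNCAT for Pou1f1, TAATCC for Pitx factors and TATAAA for a TATA box, in windows from 250 bases before to 50 after the start. Promoters of 7 of the 9 genes were in the table, which gave 8 windows. The Pou1f1 letters occurred in Prl, with a minus-strand match that begins 148 bases and a plus-strand match that begins 47 bases before the start, and with 2 matches in Pou1f1 itself. They occurred in 8.84% of all 32851 promoters of that length. The Pitx letters occurred in none of the 8 windows and in 7.06% of all promoters. The TATA letters occurred in a window of all 7 genes, beside 13.6% of all promoters, and in Prl the match overlaps its own reverse complement as TTTATAAA. A match is a description of letters and not of a site.

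A level here is the log2 of the signal over the 75th percentile of its own array, so 1 unit is a factor of 2, and a level of 1 probe cannot be set against that of another. Between 58.4% and 66.1% of the spots per array were well above background, the 75th percentile of processed signal lay between 626 and 1348, and 0 spots were saturated. All 13 markers of neurons, astrocytes, oligodendrocytes, microglia and endothelium were well above background on all 16 arrays, and 1 of them was called in any comparison, the astrocyte water channel Aqp4, which fell with age in the deficient mice (-0.67 ± 0.14, limma adjusted p = 0.0252). In these bulk samples, fewer cells of a type and less RNA per cell cannot be told apart. The 8 arrays of each genotype were on 1 slide, so genotype and slide cannot be told apart. Within a slide the age groups lay in different rows, in opposite order on the 2 slides, so the age difference in 1 genotype cannot be told apart from the row, while the mean over both genotypes is balanced over rows and the genotype by age difference is not.

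With values below background entered as measured, Prl varied more within the groups than any other of the 33074 probes tested. Its level was 7.64, -1.77, 5.11 and 4.64 on arrays 1 to 4 of the young wild type, and 0.73, 2.15, 6.64 and 1.26 in the young deficient mice. It was -4.42, -6.04, 1.33 and -2.60 in the old wild type, and -7.85, -3.14, 5.77 and 2.35 in the old deficient mice. The processed signal ran from 4.66 on old deficient array 1, which was not well above background, to 200396 on young wild-type array 1. All 4 groups overlapped, and the probe was well above background on 14 of the 16 arrays.

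Gh followed the same arrays. Its level was 5.37, -5.41, 2.01 and 1.72 in the young wild type and -3.43, -1.48, 3.32 and -2.69 in the young deficient mice, all well above background. In the old wild type it was -7.51, -7.92, -3.49 and -8.43, with only array 3 well above background. In the old deficient mice it was -8.22, -8.20, 0.89 and -4.11, with arrays 3 and 4 well above background. All 8 young arrays and 3 of 8 old ones were thus above background, and array 2 of the young wild type lay below array 3 of either old group.

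Pomc was well above background on all 16 arrays, and its lowest level, 0.26, was still above the 75th percentile. Its level was 5.14, 0.67, 2.18 and 2.01 in the young wild type and 1.48, 0.56, 2.64 and 0.61 in the young deficient mice. In the old wild type it was 0.59, 0.47, 0.26 and 0.56, all below the 4 young wild-type arrays. In the old deficient mice it was 0.30, 0.34, 1.83 and 0.33, with array 3 apart from the other 3.

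Cga, the alpha subunit of the glycoprotein hormones, showed the clearest gap between the ages. Its main probe read 2.71, -3.34, -0.23 and -0.90 in the young wild type and -3.85, -3.87, 1.17 and -3.76 in the young deficient mice, all well above background. In the old wild type it read -8.05, -7.62, -7.75 and -4.73, with only array 4 well above background, and in the old deficient mice -7.94, -7.92, -1.85 and -4.90, with arrays 3 and 4 well above background. The 2 wild-type groups did not overlap, while old deficient array 3 lay above 3 of the 4 young deficient arrays. The Ensembl-transcript probe of Cga was well above background on 1 array, array 4 of the old wild type (-4.60), and ran from -8.59 to -7.39 in the young mice, so the 2 probes disagreed.

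Of the beta subunits, Tshb was well above background on 7 arrays and was left out of the test. It read -1.41, -6.74, -4.09 and -5.00 in the young wild type (3 of 4 above background) and -5.88, -7.42, -4.08 and -5.87 in the young deficient mice (2 of 4). In the old wild type it read -7.95, -7.72, -7.79 and -6.99, with no array above background, and in the old deficient mice -4.22, -7.58, -4.58 and -6.52 (2 of 4). Against the lowest signal well above background on each old wild-type array, the young wild-type mean was 3.23-fold higher and the old deficient mean 1.21-fold higher. Both means include arrays not above background, taken as measured, so these values are not strict lower bounds. They have no test, and array 1 of the old deficient group stood high for Tshb while its Prl, Gh and Cga were not above background.

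Lhb was well above background on all 16 arrays, at signals of only 20.8 to 110, and ranged over 2.53 log2 units, less than Prl, Gh and Cga. It read -3.18, -5.27, -4.74 and -4.34 in the young wild type, -4.18, -4.68, -4.12 and -5.27 in the young deficient mice, -5.71, -4.91, -5.27 and -5.55 in the old wild type and -5.28, -5.60, -5.29 and -4.89 in the old deficient mice. The highest array was again array 1 of the young wild type, followed by array 3 of the young deficient mice. Fshb was well above background on 2 arrays, array 3 of the young deficient (-2.37) and array 3 of the old deficient mice (-5.88), and ran from -8.45 to -6.20 elsewhere.

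The transcription factors were dim. Pitx1 read -2.35, -5.01, -4.50 and -5.14 in the young wild type, the only group with all 4 arrays above background, and -4.41, -6.27, -3.16 and -6.21 in the young deficient mice. It read -3.01, -6.21, -6.53 and -4.99 in the old wild type and -6.34, -7.35, -4.83 and -6.67 in the old deficient mice. Old wild-type array 1 was second highest for Pitx1, although its Gh and Cga were not above background. Pou1f1 was well above background on 0 of 16 arrays (-8.61 to -7.54), including those where Prl and Gh were bright.

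**Figure D1:**
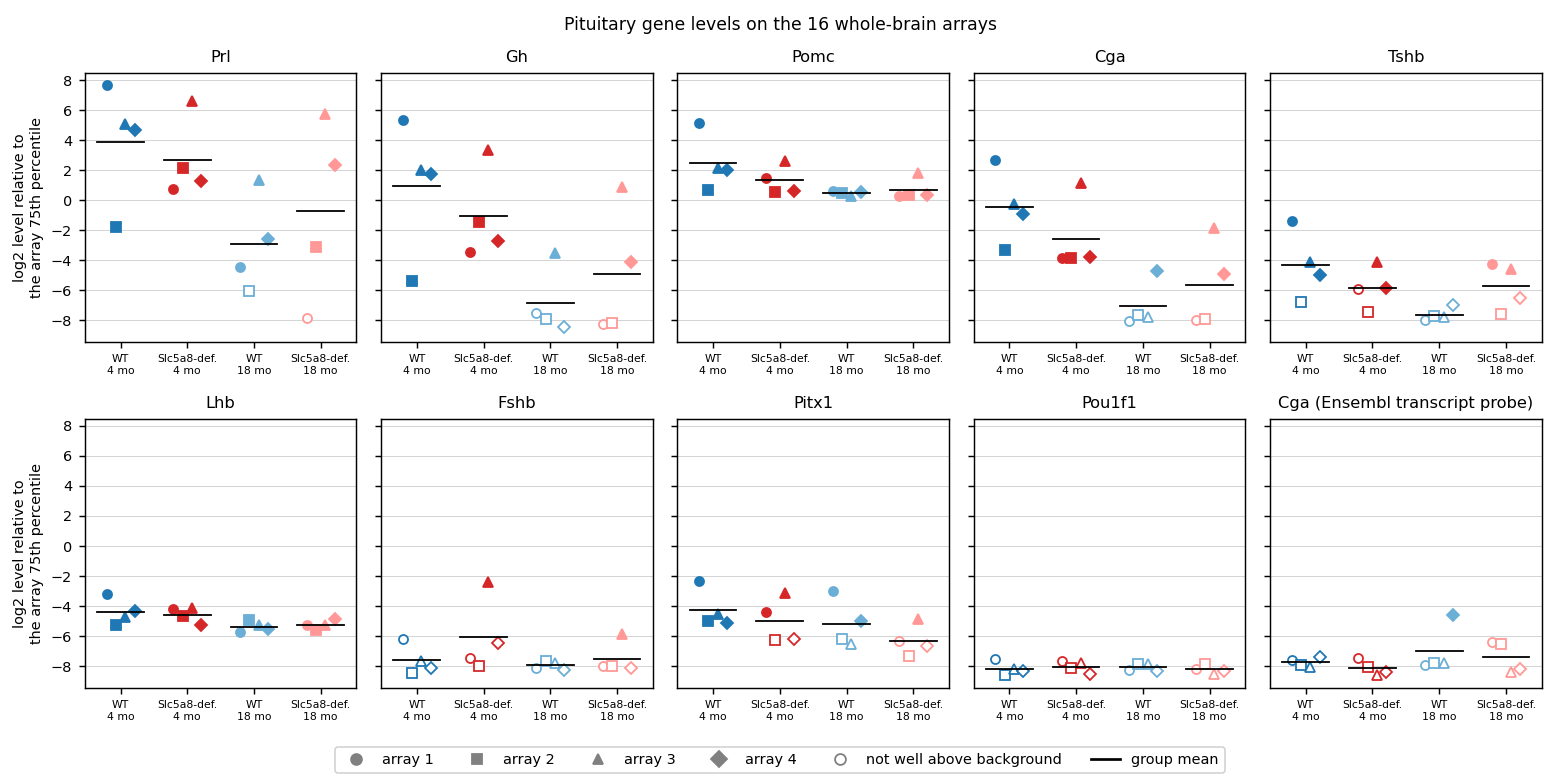
Each panel plots 1 probe, with the log2 level relative to the array's 75th percentile on the vertical axis, the 4 groups on the horizontal axis (WT, wild type; def., deficient; mo, months), a symbol per array and a line at the group mean. Open symbols are not well above background. Prl, Gh and Cga span from 10.8 to 15.5 log2 units over the 16 arrays, while Pou1f1 stays between -8.61 and -7.54.

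In order of group means, Prl, Gh, Cga and Pomc were highest in the young wild type, then in the young deficient, old deficient and old wild-type mice. For Prl the means were 3.91 ± 4.01, 2.69 ± 2.69, -0.72 ± 6.00 and -2.93 ± 3.17 (SD, n = 4 each). For Cga they were -0.44 ± 2.49, -2.58 ± 2.50, -5.65 ± 2.91 and -7.04 ± 1.55, and for Pomc 2.50 ± 1.88, 1.32 ± 0.98, 0.70 ± 0.75 and 0.47 ± 0.15. For Gh they were 0.92 ± 4.53, -1.07 ± 3.04, -4.91 ± 4.33 and -6.84 ± 2.26. No difference between neighbours in this order passed the test.

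The spread between arrays of the same group set what could be tested. The residual SD of the 4-group fit was 4.17 for Prl, 3.66 for Gh and 2.41 for Cga, which ranked 1, 2 and 3 of the 33074 probes, beside a median of 0.25 over all of them. Pitx1 (1.38) was 46th and Pomc (1.13) 111th. Lhb (0.56) was 1907th. Values below background entered these SDs as measured, and the ranks were not taken under another background correction. With normexp background correction the SE of the mean age difference of Cga was 0.70, beside 1.08 here.

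**Figure D2:**
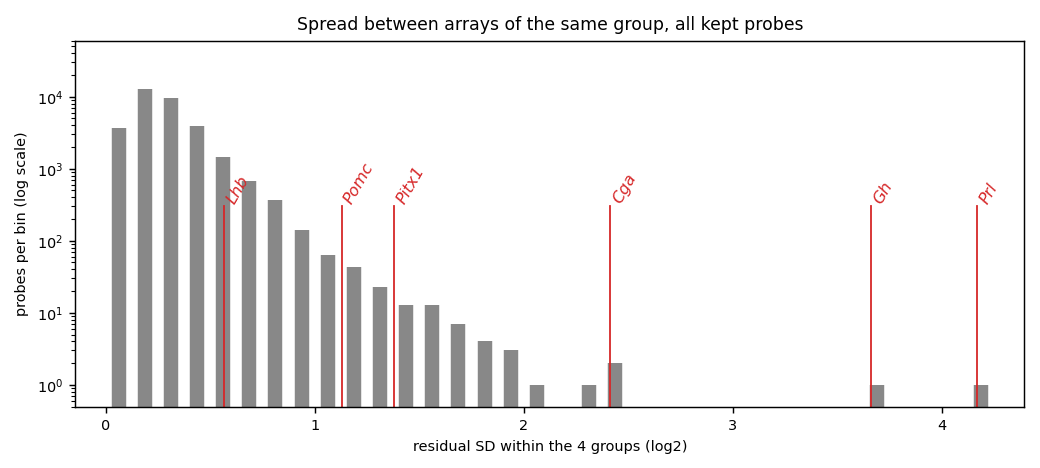
The bars count the kept probes, on a log scale, by their residual SD within the 4 groups in log2 units, and the red lines mark the 6 pituitary genes kept. Prl at 4.17, Gh at 3.66 and Cga at 2.41 stand at the far right of the distribution.

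The comparison of 18 with 4 months asked how transcripts of the pituitary change in the brain samples with age. Averaged over both genotypes, Cga fell by 4.84 ± 1.08 log2 units (SE, 95% interval -7.14 to -2.53, limma adjusted p = 0.0386 over all kept probes). It was the only one of 6 tested probes to pass, beside 1.46% of all probes tested in either direction and 0.825% lower. Of these 6, Gh, Prl, Cga and Pitx1 passed the filter on dim probes only through 4-month groups, so their direction is not independent of the filter. Gh differed by -5.80 ± 1.64 (adjusted p = 0.105), Prl by -5.12 ± 1.87 (adjusted p = 0.213), Pomc by -1.33 ± 0.51 (adjusted p = 0.24), Lhb by -0.84 ± 0.26 (adjusted p = 0.137) and Pitx1 by -1.11 ± 0.62 (adjusted p = 0.426). The median of the 6 was -3.08, beside -0.002 over all probes tested.

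The Cga call was narrow. With every probe tested its adjusted p was 0.0999 at the same difference, with normexp background correction the difference was -2.45 (adjusted p = 0.138), and in the authors' deposited values it was -2.87 (adjusted p = 0.0762). It was also lost without any 1 of 12 arrays (adjusted p = 0.051 to 0.0915), and kept without young deficient array 1, old deficient array 3, old wild-type array 4 or young wild-type array 2. Without old deficient array 3 or young wild-type array 2, Gh passed as well (-6.77, adjusted p = 0.0461, and -6.86, adjusted p = 0.0316). On the 5 old arrays where Cga was not well above background, its values entered the fit as measured.

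Within the wild type the age differences were -7.76 ± 2.32 for Gh, -6.84 ± 2.64 for Prl, -6.60 ± 1.53 for Cga, -2.03 ± 0.72 for Pomc, -0.98 ± 0.36 for Lhb and -0.94 ± 0.88 for Pitx1. Gh and Cga were well above background on 1 of the 4 old wild-type arrays and Prl on 3, so the sizes of these differences depend on how background is handled. With normexp they were -5.08 for Gh, -5.74 for Prl and -3.49 for Cga. By limma 0 of the 6 passed, beside 0.369% of all probes, Cga coming nearest (adjusted p = 0.101). By the same test 5 had an unadjusted p under 0.05, with no share of all probes at that threshold to set beside them. Gh, Prl and Cga are among these 5 and passed the filter only through 4-month groups, so their direction is not independent of the filter. Cga and Pomc were 2 of the 6 whose groups did not overlap, as were 3.51% of all probes with a value on all 8 arrays. Within the deficient mice, on the other slide, the differences were -3.84 ± 2.32 for Gh, -3.41 ± 2.64 for Prl, -3.07 ± 1.53 for Cga and -0.62 ± 0.72 for Pomc. None of the 6 passed there by limma, beside 2.1% of all probes, 0 had an unadjusted p under 0.05, and 0 did not overlap, beside 17.4% of all probes.

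The difference between the age effects of the genotypes was tested directly. It was 3.92 ± 3.28 for Gh, 3.53 ± 2.16 for Cga (95% interval -1.09 to 8.14), 3.43 ± 3.73 for Prl and 1.41 ± 1.02 for Pomc. Without old deficient array 3 it was 1.99 for Gh, 2.26 for Cga, 1.27 for Prl and 1.03 for Pomc. By limma 0 of 6 passed, beside 0.236% of all probes, and 0 had an unadjusted p under 0.05.

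The comparison of deficient with wild-type mice gave no called member at either age. At 4 months the differences were -2.14 ± 1.53 for Cga, -1.99 ± 2.32 for Gh (95% interval -6.94 to 2.96), -1.21 ± 2.64 for Prl, -1.18 ± 0.72 for Pomc, -0.76 ± 0.88 for Pitx1 and -0.18 ± 0.36 for Lhb. By limma 0 of 6 passed and 0 had an unadjusted p under 0.05, beside 1.45% of all probes called, and 0 did not overlap, beside 9.4%. At 18 months the hormones lay on the other side, at 2.22 ± 2.64 for Prl, 1.93 ± 2.32 for Gh, 1.39 ± 1.53 for Cga, 0.23 ± 0.72 for Pomc and 0.10 ± 0.36 for Lhb, while Pitx1 was at -1.11 ± 0.88. The values of Prl, Gh, Cga and Pomc rest on old deficient array 3, without which the difference was 0.06 for Prl, -0.004 for Gh, 0.12 for Cga and -0.14 for Pomc. Again 0 of 6 passed limma's test and 0 had an unadjusted p under 0.05, beside 1.36% called, and 0 did not overlap, beside 8.03%.

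Averaged over ages, the genotype difference was -0.03 ± 1.64 for Gh (95% interval -3.53 to 3.47), 0.50 ± 1.87 for Prl, -0.38 ± 1.08 for Cga, -0.47 ± 0.51 for Pomc, -0.04 ± 0.26 for Lhb and -0.94 ± 0.62 for Pitx1. By limma 0 of 6 passed, beside 3.13% of all probes, and 0 had an unadjusted p under 0.05. The intervals of Gh, Prl and Cga are wide enough to hold differences of several log2 units in both directions.

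**Figure D3:**
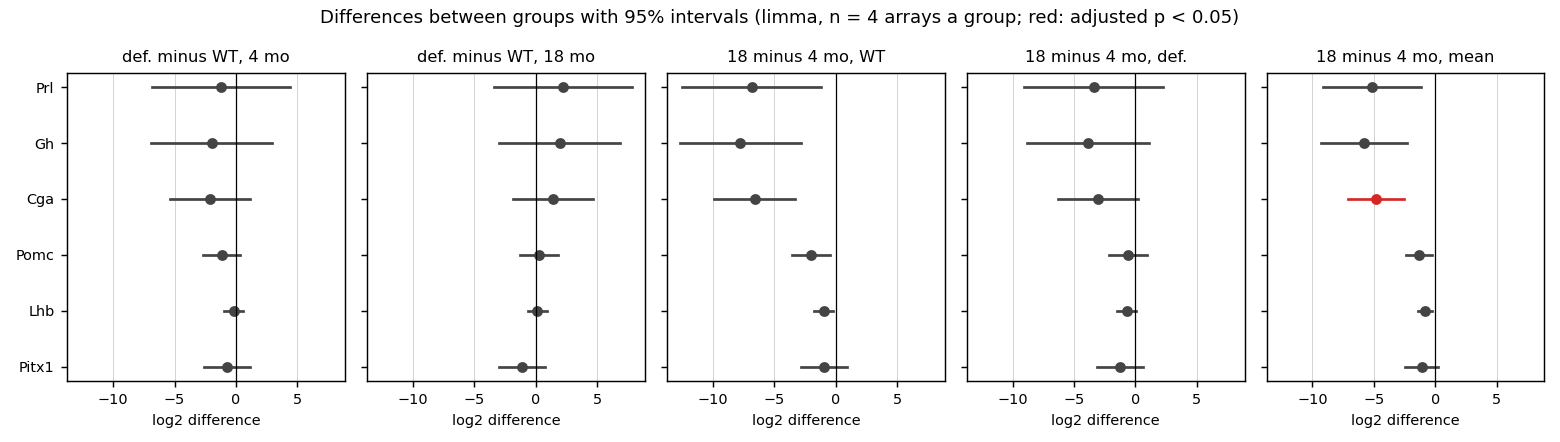
Points are log2 differences of the 6 tested genes with 95% intervals from limma, for the 5 comparisons named above the panels (def., deficient; WT, wild type; mo, months), and red marks an adjusted p under 0.05. Only Cga in the mean age comparison is red, at -4.84, and all intervals of the genotype comparisons include 0.

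The hormones varied together from array to array. Across the 16 arrays Prl correlated with Gh at r = 0.95 (Spearman's rho 0.91, permutation p = 1e-05 for both, the smallest that the 100000 permutations can give, adjusted p = 7e-05 over 7 relations). It correlated with Cga at r = 0.87 and rho 0.84 (permutation p = 4e-05 and 0.00011, adjusted p = 0.00014 and 0.000385), and with Pomc at r = 0.73 and rho 0.69 (permutation p = 0.00045 and 0.00402, adjusted p = 0.00105 and 0.00938). Without the 2 arrays farthest from the median Prl level, old deficient array 1 and old wild-type array 2, r was 0.97 for Gh, 0.85 for Cga and 0.76 for Pomc. The permutations shuffled all 16 arrays regardless of group and slide, so a group difference shared by both genes also lowers these p-values. With each group's mean removed r was 0.92, 0.81 and 0.62, and within the deficient and the wild-type slide it was 0.93 and 0.97 for Gh, 0.91 and 0.86 for Cga, and 0.72 and 0.81 for Pomc. The r values within groups and slides have no p-value.

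The dimmer members were set against Prl in the same way. The correlation with Lhb was r = 0.65 and rho 0.64 (permutation p = 0.00528 and 0.00926, adjusted p = 0.00924 and 0.0133), and r = 0.76 without the 2 farthest arrays. With Tshb it was r = 0.59 and rho 0.64 (permutation p = 0.0145 and 0.00952, adjusted p = 0.0195 and 0.0133), and r = 0.85 without the 2 farthest arrays, but 0.14 within the deficient slide against 0.87 within the wild-type slide. With Fshb it was r = 0.55 and rho 0.52 (permutation p = 0.0167 and 0.0431, adjusted p = 0.0195 and 0.0503), and r = 0.60 without the 2 farthest arrays. With Pitx1 it was r = 0.44 and rho 0.39 (permutation p = 0.0923 and 0.142, adjusted p = 0.0923 and 0.142), which did not pass. With each group's mean removed r was 0.45 for Lhb, 0.41 for Tshb, 0.57 for Fshb and 0.36 for Pitx1. Within the deficient and the wild-type slide r was 0.49 and 0.78 for Lhb, 0.65 and 0.59 for Fshb, and 0.63 and 0.35 for Pitx1. Values of Tshb, Fshb and Pitx1 below background enter these correlations.

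**Figure D4:**
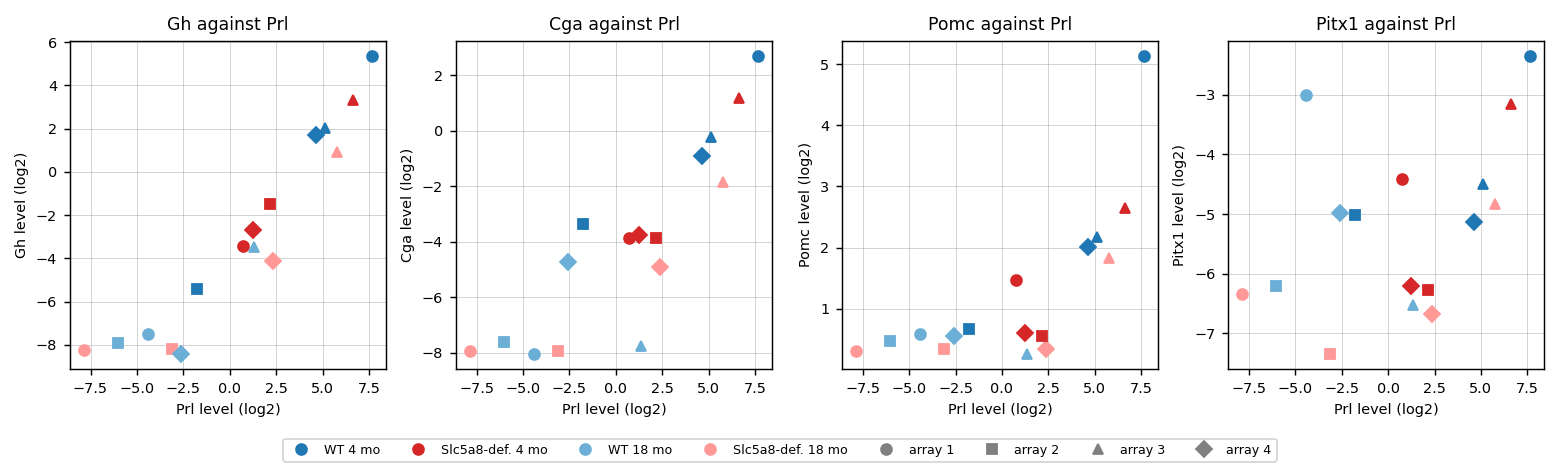
The log2 level of Gh, Cga, Pomc and Pitx1 is plotted against that of Prl for the 16 arrays, with colours for the groups and symbols for the array number. Gh lies along a line (r = 0.95), Pomc is flat at low Prl and rises at high Prl (r = 0.73), and Pitx1 scatters (r = 0.44).

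The mean of the 6 tested genes, each taken relative to its mean over all arrays, ordered the samples. Young wild-type array 1 was first (5.05), followed by young deficient array 3 (3.58), young wild-type arrays 3 (2.47) and 4 (2.16) and old deficient array 3 (1.92). The lowest were old deficient array 1 (-3.39), old wild-type array 2 (-2.87) and old deficient array 2 (-2.81). On the first 4 of these arrays all 6 genes lay above their own means, and on the 3 lowest none did. Young wild-type array 2 (-0.85) ranked 10th of 16, and the 4 old wild-type arrays lay between -2.87 and -1.08.

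Other genes of the pituitary were read beside the hormones. Of 24 listed regulators and receptors, 16 were kept, and by limma 0 were called in any of the 7 comparisons, with 2 of 16 at an unadjusted p under 0.05 in the mean age comparison. There 7 were higher and 9 lower, with a median of -0.09 beside -0.002 over all probes. Rax, a homeobox gene of hypothalamus and pituitary, came nearest (1.32 ± 0.31, adjusted p = 0.051), followed by the LIM factor Isl1 (0.52 ± 0.16, adjusted p = 0.143). Genes that mark single pituitary lineages, Ghrhr of somatotrophs, Gnrhr of gonadotrophs and Tbx19 of corticotrophs, were well above background on 0 arrays, and Hesx1 on 1. The filter left these out of the 16. Among the 16, Foxl2, Pcsk2, Rxrg and Crhr1 were well above background on all 16 arrays, also where Prl was not. How much of the signal of the 16 comes from the pituitary was not tested. The summed level of the 16 genes, as a mean relative to each gene's own mean, ran from -0.25 to 0.42 in the young wild type, -0.36 to 0.15 in the young deficient, -0.15 to 0.07 in the old wild type and -0.05 to 0.18 in the old deficient mice.

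Of these 16 regulators and receptors, 6 had their highest level on young wild-type array 1, the array with the most Prl. Among them were Dlk1, which somatotrophs express (3.34, beside a median of 1.57 over the 16 arrays), the LIM-homeodomain factors Lhx3 (-1.37, median -2.47) and Lhx4 (-2.04, median -3.49), Pax7, a factor of melanotrophs (-2.94, median -4.92), and Gata2 (-1.41, median -1.76), which acts in thyrotrophs and gonadotrophs. Others lay low on the same array: Pcsk2, a protease that processes prohormones, and Trhr, the receptor of thyrotropin-releasing hormone, ranked 16 of 16 there, and Isl1 and Rxrg ranked 13. On young deficient array 3, the array with the second highest Prl, Dlk1 ranked 3 of 16 (2.15) and Lhx3 ranked 4 (-2.16), while Lhx4 ranked 9 and Gata2 ranked 15.

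The hypothalamic factors that drive or restrain the gland did not pass in any comparison. Of 10 listed, 9 were kept, and by limma 0 were called in any of the 7 comparisons, with 2 at an unadjusted p under 0.05 in the mean age comparison, Crh, which releases adrenocorticotropin (-0.35 ± 0.09, adjusted p = 0.0825), and Th, the enzyme of dopamine synthesis (-0.54 ± 0.23, adjusted p = 0.286). Ghrh, the releasing hormone of somatotrophs, ran from -3.06 to -1.25 over the arrays, Trh from -0.31 to 2.22, and somatostatin (Sst), which restrains Gh, from 4.73 to 5.85. In the arcuate nucleus list 6 of 7 genes were kept, and 1 passed, Tbx3, which rose with age in the mean (0.44 ± 0.08, adjusted p = 0.0154) and in the deficient mice (0.53 ± 0.12, adjusted p = 0.0314).

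Receptors of the pituitary hormones were read next. Of 10, 5 were kept and by limma 0 were called in any comparison, with 1 at an unadjusted p under 0.05 in the mean age comparison, the growth hormone receptor Ghr (0.27 ± 0.08, adjusted p = 0.134). The prolactin receptor Prlr ran from -1.11 to 0.91. Lhcgr, Fshr, Mc1r and Mc2r were well above background on 0 arrays, and Tshr was above background on 2 by 1 of its 2 probes.

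Of 12 genes known to respond to the hormones of the pituitary axes, all were kept and 2 passed in some comparison. By limma 7 of 12 had an unadjusted p under 0.05 in the mean age comparison, 7 with age in the deficient mice and 0 in the wild type. In the mean age comparison 7 of the 12 were higher and 5 lower. Dio2, which activates thyroid hormone, fell with age in the deficient mice (-0.85 ± 0.20, adjusted p = 0.0445) and was lower in deficient than wild-type mice at 18 months (-0.97 ± 0.20, adjusted p = 0.0254) and in the mean over ages (-0.63 ± 0.14, adjusted p = 0.0265). Per1, a clock gene that glucocorticoids induce, rose with age in the deficient mice (0.71 ± 0.15, adjusted p = 0.0228) and in the mean over genotypes (0.48 ± 0.10, adjusted p = 0.0322). Targets of growth hormone were at -0.61 to 0.50 for Igf1 and -1.06 to -0.34 for Socs2 over the arrays, and Socs2 was lowest on young wild-type array 1. Of the same list, Klf9 and Sgk1 were also lowest on that array, while Igf1 ranked 11 of 16, Cish 9 and Socs3 1.

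Markers of other tissues that border the brain moved with some of the same samples. All 11 of 11 choroid plexus genes were highest on young wild-type array 1, among them Ttr, the thyroid hormone carrier of the cerebrospinal fluid (7.72, median 6.55), Clic6 (3.34, median 1.84) and Folr1 (3.19, median 1.38). The list's mean relative to each gene's own mean was 1.66 there and ran from -0.16 to 1.66 in the young wild type, -0.48 to 0.10 in the young deficient, -0.58 to 0.40 in the old wild type and -1.15 to 0.16 in the old deficient mice. In the mean age comparison 11 of 11 were lower (median -0.50, beside -0.002 over all probes), and by limma 0 were called, with 6 at an unadjusted p under 0.05. Young wild-type arrays 1, 3 and 4 ranked 1, 2 and 3 for this list and 1, 3 and 4 for the mean of the 6 pituitary genes, while young deficient array 3 and old deficient array 3 ranked 6 (0.10) and 11 (-0.21) for the list and 2 and 5 for the pituitary genes. Over the 16 arrays each choroid plexus gene correlated with that mean at r = 0.65 to 0.76, given as a description. Its part in the result on the hormones was not tested.

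With age, genes of spinal cord and caudal hindbrain and of the olfactory epithelium fell in the same comparison as Cga. Of 9 kept Hox genes 8 were called lower in the mean age comparison (all 9 lower, median -3.02), and of 5 kept olfactory genes 2 were called lower, S100a5 (-3.84 ± 0.29, adjusted p = 7.27e-06) and the olfactory marker protein Omp (-2.48 ± 0.39, adjusted p = 0.00455). The Hox list ran from -0.74 to 2.07 in the young wild type, 1.15 to 3.01 in the young deficient, -3.47 to -1.60 in the old wild type and -1.27 to 0.79 in the old deficient mice, and the olfactory list from 1.04 to 1.46, -0.05 to 0.40, -0.89 to 0.49 and -1.01 to -0.95. For the Hox list young deficient array 3 ranked 2, young wild-type arrays 3 and 4 ranked 4 and 5, and young wild-type array 1 and old deficient array 3 ranked 10 and 11. Over the 16 arrays the 9 Hox genes correlated with the mean of the 6 pituitary genes at r = 0.09 to 0.46, given as a description. Hoxc8 and Hoxd8 were well above background on 0 arrays. The part of these lists in the result on Cga was not tested.

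Red blood cell, meningeal and pineal genes were read for the same reason. Of 5 kept red blood cell genes, 5 were lower in the mean age comparison (median -1.26) and by limma 0 were called, with 5 at an unadjusted p under 0.05, and 4 were called lower with age in the deficient mice. Their list ran from -2.31 to -0.11 in the old deficient mice and from -0.02 to 1.89 in the other 3 groups. Of 9 meningeal genes, the collagens Col1a1 (-0.89 ± 0.17, adjusted p = 0.0152) and Col1a2 (-0.58 ± 0.12, adjusted p = 0.03) were called lower with age, and the list ran from -0.34 to 0.48 over all groups. Of the pineal genes 3 were kept, by limma 0 were called in any comparison and 2 had an unadjusted p under 0.05 with age, and Tph1 was highest on young wild-type array 1 (-2.93, median -4.89). The part of these lists was not tested.

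**Figure D5:**
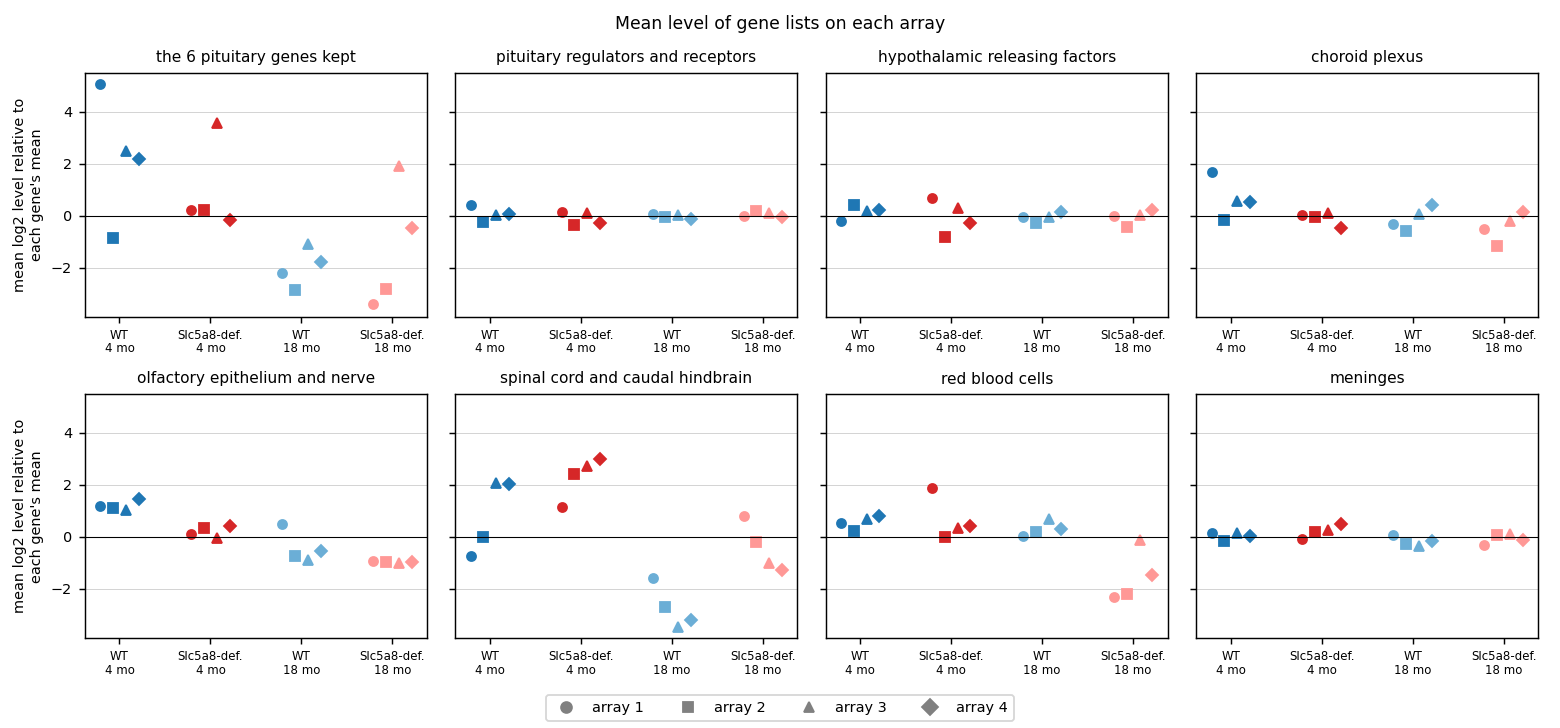
Each point is 1 array, and the vertical axis is the mean log2 level of a list relative to each gene's mean over all arrays, by group (WT, wild type; def., deficient; mo, months). The 6 pituitary genes range from -3.39 to 5.05, the spinal cord and caudal hindbrain list from -3.47 to 3.01, the red blood cells from -2.31 to 1.89 and the choroid plexus from -1.15 to 1.66. The kept pituitary regulators and receptors range from -0.36 to 0.42. Their list leaves out genes that the filter dropped and holds some that were well above background where Prl was not.

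The genes whose pattern over the 16 arrays was most like the mean of the 6 were sought among 19500 probes of 13988 named genes that were well above background on all arrays. The 12 highest had r between 0.78 and 0.85. They were Wdr63, an axonemal dynein component (0.85), the glycogen synthase Gys1 (0.84), the protease inhibitor A2m (0.83), the retinol dehydrogenase Rdh5 (0.83), the lysophospholipase Enpp2 (0.83), Lrrc51 (0.82), Sytl3 (0.81), the endoplasmic reticulum retention receptor Kdelr3 (0.81), the semaphorin Sema3b (0.80), Spon2 (0.78), the nucleoside transporter Slc28a3 (0.78) and the homeobox gene Pbx3 (0.78). Young wild-type array 1 was highest for 11 of the 12 and second for Spon2. Without that array r ran from 0.66 to 0.82, and their ranges over the arrays were 0.47 to 2.68 log2 units, below those of Prl, Gh and Cga. These values are a description with no test, from arrays that share their slides and groups.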

How the data were processed

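Per the file headers, the deposited intensities come from Agilent Feature Extraction 10.7.3.1 after background subtraction and without scaling between arrays. The authors' deposited log2 values, of unstated scale and centring (column medians 6.606 to 6.622), rank probes as the raw median signal does and served as an alternative. The submitters' processing notes name limma.

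Flagged outlier spots (98 to 182 per array) were left out and spots of a probe averaged. The level was log2 of the processed intensity minus the array's 75th percentile. Probes that were well above background throughout 1 or more groups (33074 of 55681) were fitted as a means model of 4 groups with limma 3.58.1 under R 4.3.3 (with version 1.17.8 of the data.table package), with Benjamini-Hochberg adjustment over all of them and a threshold of 0.05. The test was checked on simulated data with independent normal noise for each probe. That simulation had no background floor and no variation shared between probes, so it does not bear on members with values below background. Correlations used two-sided permutation tests with 100000 permutations, which shuffled all arrays regardless of group and slide. The fold values for Tshb set the bright group's mean, as measured, against a mean over the dim group. For each dim array this took the higher of the probe's level and the lowest level well above background. Genes named beside the members come from the called genes and the 4 smallest p of each of 12 lists (126 genes, each by its kept probe of highest mean), from the 12 genes of most like pattern, or were chosen after their values were seen. Members and lists were chosen with earlier results of these data known. Sequences of promoters are RefSeq's, in GRCm38.p6. A few listed genes and 1 probe sequence are not reported here. Alternatives were other background corrections, scalings, filters, values and samples.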

Additional observations from a re-analysis of the deposited data

Results flagged for a closer look

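The 30 groups of 4 arrays with any array well above background were tested for a single array apart from the rest (Dixon's test at 95%). Of these, 5 had such an array. A dim group entered only through a high array, and the probes share their arrays, so no chance rate is given. For both Cga probes in the old wild type and for Fshb, the array apart was the sole array of its group well above background. Array 3 of the old deficient mice stood apart for Pomc (1.83, the nearest array at 0.34) and for Fshb (-5.88, the nearest at -7.99). Array 3 of the young deficient mice stood apart for Cga (1.17, the nearest at -3.76). Array 4 of the old wild type stood apart for both Cga probes, at -4.73 by the main probe (the nearest at -7.62) and at -4.60 by the Ensembl-transcript probe (the nearest at -7.77).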

How the results depend on the processing

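The count of members called in the mean age comparison was 1. It was 0 with normexp, with no filter on dim probes, with only probes well above background on all 16 arrays (2 member probes tested, Cga not among them) and in the deposited values, and 2 with array weights (Gh at -7.05, adjusted p = 0.0244, beside Cga). It ran from 0 to 2 when 1 array was left out. It stayed 1 with quantile normalization, a percentile over detected probes, 1 probe per gene and the replicate number as a block (Cga adjusted p = 0.0387), and the other 6 comparisons kept 0 in every alternative run. The replicate numbers did not pair the arrays, since same-numbered arrays correlated at -0.42 to 0.25 and 4 of 16 correlated best with their own number. Of 1046 alternative values for single probes, 990 kept direction and call, 15 lost the call and 3 gained it. A further 38 changed sign without a call, and 0 reversed a call. These counts take no account of how far a value shifted in size. Apart from fewer probes or arrays in the fit, the causes of these changes were not tested. The 4 arrays a group, and signals near background for Tshb, Fshb and Pou1f1, limit precision.

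Counts over all probes moved more. In the order genotype at 4 months, genotype at 18 months, age in wild type, age in deficient, genotype by age, mean genotype and mean age, they were 479, 449, 122, 696, 78, 1035 and 484. With array weights they were 2526, 852, 244, 3897, 321, 2410 and 1909, with no filter 150, 283, 82, 208, 35, 571 and 220, and with normexp 317, 300, 64, 415, 47, 769 and 296. The replicate block gave 242, 330, 100, 359, 41, 774 and 328. Fitting only the groups compared gave 110 at 4 months and 175 for age in the deficient mice, and 1 probe per gene gave 43 for genotype by age. Leaving out 1 array gave 145 to 555, 270 to 686, 76 to 160, 176 to 891, 39 to 106, 710 to 1264 and 236 to 535.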
